A study of Mus musculus with 59 samples.

Results

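The calcium release and uptake genes of skeletal muscle were followed across 59 muscle libraries. They are the 10 genes Atp2a1, Atp2a2, Sln, Pln, Casq1, Casq2, Ryr1, Cacna1s, Jph1 and Pvalb, chosen by symbol from the 47643 gene symbols of the deposited expression table, and all 10 passed the filter on low values in every comparison. The mice were female NCI Ath/nude animals, athymic mice that accept human tumors, aged 4 months, and all of them carried a patient-derived human melanoma xenograft. One xenograft induces cachexia, the wasting of muscle and fat in cancer (CAC, cachectic), and the other does not (NONCAC, non-cachectic). Diaphragms came from mice that also received rFibcd1, the recombinant form of the secreted protein Fibcd1, or a mock injection. The diaphragm groups held 10 cachectic mock, 10 cachectic rFibcd1, 9 non-cachectic mock and 10 non-cachectic rFibcd1 libraries, while tibialis anterior and soleus muscles gave 5 cachectic and 5 non-cachectic libraries each, for which the labels name no injection. Each melanoma was a single xenograft line, so a difference between melanomas is a difference between those 2 lines, and no mouse without a tumor was analysed here.

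Contraction of a muscle fiber starts when depolarization of the transverse tubules moves the voltage sensor Cacna1s, which opens the calcium release channel Ryr1 in the facing sarcoplasmic reticulum. Calsequestrins (Casq1, Casq2) store calcium inside the reticulum, junctophilin Jph1 holds the apposed membranes together, and parvalbumin (Pvalb) buffers calcium in the cytosol of fast fibers. Relaxation follows when the SERCA pumps (Atp2a1, the fast-fiber pump, and Atp2a2, the pump of slow fibers and heart) return calcium to the store, and the small membrane proteins sarcolipin (Sln) and phospholamban (Pln) restrain those pumps.

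Values are TPM, which scale each library to the same total and divide by transcript length and can therefore be compared between genes. Every library summed to 1000000 TPM, so sequencing depth is unknown and no counting error can be given, and 16436 to 19456 genes were above 0 per library. The muscles came from separate mice within a group, and p-values measure the spread between these libraries. Across muscles, libraries with the same column number may come from the same mouse, which the labels do not say. The main comparisons between muscles do not pair them. Because the tissue was whole muscle, fewer cells of a type and less RNA per cell cannot be told apart. Transcripts of the mitochondrial genome took 25.1 to 45.6% of TPM in cachectic and 47.3 to 51.7% in non-cachectic tibialis anterior, 24.1 to 34.6% and 38.96 to 44.04% in soleus, and 32.9 to 41.6% and 41.9 to 51.9% in mock diaphragm. In these 3 pairs the groups did not overlap, whereas in rFibcd1 diaphragm they did, at 29.8 to 46.4% and 39.3 to 49.01%. The libraries also split by the pseudogene Pcna-ps2, above 1 TPM in 9 of 10 cachectic mock, 8 of 10 cachectic rFibcd1, 3 of 9 non-cachectic mock and 6 of 10 non-cachectic rFibcd1 diaphragms. In both limb muscles it was above 1 TPM in 5 of 5 cachectic and 0 of 5 non-cachectic libraries, where this split and the melanoma cannot be told apart. The split was chosen with these data in view. Cachectic libraries 8 of tibialis anterior and soleus had the lowest mitochondrial shares of their groups, cachectic diaphragm libraries 3 (rFibcd1) and 20 (mock) the lowest Casq1, and rFibcd1 cachectic diaphragm library 11 differed by gene length, long minus short genes by -1.54 on the log2 scale where the other libraries ran from -0.32 to 0.18. In the tests below a gene is called when limma's adjusted p is under 0.05, and log2 fold changes are on the scale of TPM + 1 with their standard error (SE), which understates changes of genes at low TPM.

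The muscle labels were first compared with the myosin heavy chains. Slow Myh7 had a median of 5166 TPM in non-cachectic soleus, 347 in non-cachectic mock diaphragm and 0.4597 in non-cachectic tibialis anterior. Myh4, the myosin of the fastest fibers, stood at 11695 TPM in tibialis anterior, 127 in diaphragm and 12.1 in soleus. The limb labels thus matched their myosins, with Myh4 highest in tibialis anterior and Myh7 highest in soleus. Diaphragm lay between them for both, so its label was not checked by a myosin of its own. Libraries are named by the number in their column of the table. Cachectic soleus library 7 carried Myh4 at 4989 TPM, and results that rest on it are given with and without it.

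With no cachexia, taking each gene's largest difference, the pumps, the pump inhibitors, the calsequestrins and Pvalb differed most between muscles, each against tibialis anterior. Between soleus and tibialis anterior, 4 of the 10 genes were higher and 4 lower in soleus, against 63.9% and 5.63% of the 13501 genes tested (69.5% called in all). Between diaphragm and tibialis anterior, 4 were higher and 5 lower in diaphragm (64% and 8.52% of all genes, 72.5% in all). Between diaphragm and soleus, 3 were higher and 3 lower in diaphragm (16.8% and 22.1%, 38.8% in all). Over the 10 genes the median log2 fold change was 0.11, -0.25 and -0.23 in these comparisons, where the median of all genes was 0.47, 0.44 and -0.04. After median-ratio scaling, which sets each library's typical gene to the same level, the share of called genes that were higher went from 91.9 to 49.7% for soleus against tibialis anterior and from 88.3 to 51.2% for diaphragm against tibialis anterior. Dunn's test, which the study used, called 5 of the 10 genes in soleus against tibialis anterior (37% of all genes), 8 in diaphragm against tibialis anterior (51%) and 0 in diaphragm against soleus (8.73%), where 4 had an unadjusted p under 0.05 (all genes 34.5%). The muscle comparisons use the non-cachectic mock diaphragm and the non-cachectic limb muscles, and they share those libraries.

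Markers of fiber types and of other cells are given here from the main fit, without median-ratio scaling. Beside their counts, 63.9% of all genes were higher and 5.63% lower in soleus than in tibialis anterior. In diaphragm 64% were higher and 8.52% lower than in tibialis anterior, and 16.8% higher and 22.1% lower than in soleus. All 7 slow-fiber markers were higher and all 7 fast-fiber markers lower in soleus than in tibialis anterior. In diaphragm against tibialis anterior 7 of 7 slow-fiber markers were higher and 6 of 7 fast-fiber markers lower, and against soleus 7 of 7 slow-fiber markers were lower and 7 of 7 fast-fiber markers higher. The summed levels of the lists are given for tibialis anterior, soleus and diaphragm in that order, and were 40.3 to 67.5, 27213 to 35893 and 1941 to 3312 TPM for slow and 55758 to 72562, 12593 to 18674 and 31181 to 39745 TPM for fast fibers. Macrophage markers, at 13.5 to 33.6, 60.97 to 77.3 and 109.5 to 266 TPM, were higher than in tibialis anterior for 6 of 6 genes in both other muscles, and endothelial markers, at 86.2 to 122, 153 to 194 and 169 to 224 TPM, for 5 of 5 in both. Higher than in tibialis anterior were also 5 of 5 adipocyte markers in soleus and 4 in diaphragm (23.6 to 57.2, 316 to 1046 and 124 to 1211 TPM), 4 and 5 of 5 Schwann cell markers (29.8 to 51.4, 87.6 to 156 and 88.4 to 128 TPM), 4 and 3 of 5 smooth muscle markers (77.4 to 125, 191 to 287 and 124 to 221 TPM) and 2 of 3 tested heart markers in each. Red blood cell markers were higher for 5 of 5 genes and liver markers for 4 of 5 in diaphragm against tibialis anterior, with 0 of 5 called for each list by limma in soleus (309 to 1090.2, 558 to 1675 and 2406 to 10579 TPM for red blood cells, 0.0416 to 0.542, 0.298 to 72.6 and 0.496 to 9071 TPM for liver). Between diaphragm and soleus, 5 of 6 macrophage, 5 of 5 red blood cell and 1 of 5 endothelial markers were higher in diaphragm and 1 of 5 adipocyte and 1 of 5 smooth muscle markers lower, and of 3 heart markers 1 was higher and 2 were lower. The part of these markers in the differences between muscles was not tested.

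Atp2a1 (chr7:126445858-126463108, minus strand, GRCm38) was the most abundant of the 10 genes in tibialis anterior, at 17189.7, 13859, 16796, 16544 and 14991 TPM in its non-cachectic libraries and 5219, 4527, 4249, 4298 and 3559.6 TPM in those of soleus. In non-cachectic mock diaphragm its lowest, median and highest values were 5049, 5724 and 6225 TPM. Tibialis anterior thus lay above both other muscles with no overlap, the log2 fold change being -1.87 ± 0.16 for soleus and -1.49 ± 0.15 for diaphragm against tibialis anterior (adjusted p = 7.87e-12 and 6.04e-11). Atp2a2 (chr5:122453513-122502225, minus strand) ran the other way, at 8.75, 10.97, 7.48, 8.56 and 11.8 TPM in tibialis anterior and 3392, 3674, 4117, 4388 and 4809 TPM in soleus. Diaphragm lay between, at 374, 757 and 856 TPM (lowest, median, highest), and no muscle overlapped another. The log2 difference from tibialis anterior was 8.60 ± 0.22 for soleus and 5.98 ± 0.20 for diaphragm (adjusted p = 5.28e-28 and 1.74e-24). The median Atp2a1 to Atp2a2 ratio of TPM was 1933 in tibialis anterior, 7.25 in diaphragm and 1.03 in soleus, where both pumps had about the same level. Atp2a1 in diaphragm exceeded soleus by 0.38 ± 0.15 (adjusted p = 0.0361) on the log2 scale, with overlapping groups, and that call was lost without any 1 of 6 libraries.

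The pump inhibitors separated the muscles in another order. Sln (chr9:53850164-53854560, plus strand) was low in non-cachectic tibialis anterior, at 1.496, 2.34, 1.99, 1.51 and 2.36 TPM, against 462, 307, 544, 569 and 476 TPM in soleus and 871, 1099 and 1785 TPM in diaphragm (lowest, median, highest). Diaphragm was highest, tibialis anterior lowest, and no muscle overlapped another. Diaphragm exceeded soleus by 1.36 ± 0.19 (adjusted p = 4.37e-07) and tibialis anterior by 8.67 ± 0.19 (adjusted p = 5.10e-30) on the log2 scale. Pln (chr10:53337667-53345987, plus strand) was low everywhere, at 1.75, 2.62, 1.81, 1.505 and 2.51 TPM in tibialis anterior, 20.7, 14.9, 13.9, 35.7 and 19.4 in soleus and 3.02, 5.43 and 13.2 in diaphragm (lowest, median, highest). Soleus was here the highest, by 2.79 ± 0.33 (adjusted p = 6.26e-09) over tibialis anterior, and diaphragm was lower than soleus by a log2 fold change of -1.66 ± 0.29 (adjusted p = 2.16e-05). Sln transcripts outnumbered Pln 251 to 1 in diaphragm and 22.4 to 1 in soleus (medians), and the ratio was 0.941 in tibialis anterior.

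The calsequestrins set tibialis anterior apart from both other muscles. Casq1 (chr1:172209894-172219868, minus strand), the main calsequestrin of skeletal muscle, was at 2949, 1759.7, 2495, 2729.6 and 2169.9 TPM in non-cachectic tibialis anterior and 883, 750.4, 820.4, 690.4 and 793 TPM in soleus, and its lowest, median and highest values in diaphragm were 501, 681 and 822 TPM. Tibialis anterior lay above both, while soleus and diaphragm overlapped and their difference of -0.24 ± 0.24 (adjusted p = 0.444) was not called. Casq2 (chr3:102086415-102146514, plus strand), the calsequestrin of heart that slow fibers also make, was at 17.98, 27.2, 22.4, 13.8 and 33.3 TPM in tibialis anterior, 277, 338, 365, 274 and 367 in soleus and 174, 243 and 352 in diaphragm. It was higher than in tibialis anterior by 3.81 ± 0.23 in soleus and 3.44 ± 0.21 in diaphragm (adjusted p = 6.65e-16 and 2.36e-16), with no overlap, and its difference between diaphragm and soleus, -0.37 ± 0.21 (adjusted p = 0.155), was not called. With libraries of the same column number treated as pairs, both calsequestrins were called lower in diaphragm than in soleus, Casq1 at -0.43 (adjusted p = 0.00806) and Casq2 at -0.58 (adjusted p = 0.000769), and Atp2a1 was no longer called at 0.35 (adjusted p = 0.0582), with 48% of all genes called. Casq1 remained the more abundant calsequestrin in all 3 muscles, at a median ratio of 111 in tibialis anterior, 2.77 in diaphragm and 2.25 in soleus.

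Pvalb (chr15:78191114-78206400, minus strand) had the widest range of the 10 genes. Its values were 12681, 7829.7, 11321, 11946 and 9388 TPM in non-cachectic tibialis anterior, 29.3, 10.4, 6.76, 63.1 and 3.89 TPM in soleus and 317, 650.4 and 893 TPM in diaphragm (lowest, median, highest). The muscles did not overlap, and relative to tibialis anterior the log2 fold change was -9.42 ± 0.90 in soleus and -4.18 ± 0.79 in diaphragm (adjusted p = 4.83e-11 and 1.83e-05). The release apparatus varied least. Ryr1 (chr7:29003344-29125179, minus strand) had non-cachectic medians of 381, 435 and 316 TPM in tibialis anterior, soleus and diaphragm. Diaphragm was below soleus with no overlap (-0.51 ± 0.11, adjusted p = 0.000214) and below tibialis anterior with overlap (-0.28 ± 0.11, adjusted p = 0.0193), the second of which was lost without tibialis anterior library 61. For soleus against tibialis anterior Ryr1 was 0.23 ± 0.12 (adjusted p = 0.0800) and not called. With libraries of the same column number treated as pairs it was called, 0.23 (adjusted p = 0.0242), and after median-ratio scaling it was called in the opposite direction, -0.37 (adjusted p = 0.0202). Cacna1s (chr1:136052750-136119822, plus strand) had medians of 325, 303 and 273 TPM, and none of its 3 differences between muscles was called, although after median-ratio scaling it was lower than in tibialis anterior in soleus, -0.61 (adjusted p = 0.00667), and in diaphragm, -0.78 (adjusted p = 0.000115). Jph1 (chr1:16964560-17097889, minus strand) was higher in tibialis anterior, at a median of 139.7 TPM, than in soleus at 66.1 and diaphragm at 63.97, with log2 differences of -0.95 ± 0.11 (adjusted p = 9.86e-09) and -1.02 ± 0.10 (adjusted p = 8.07e-11).

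**Figure D1:**
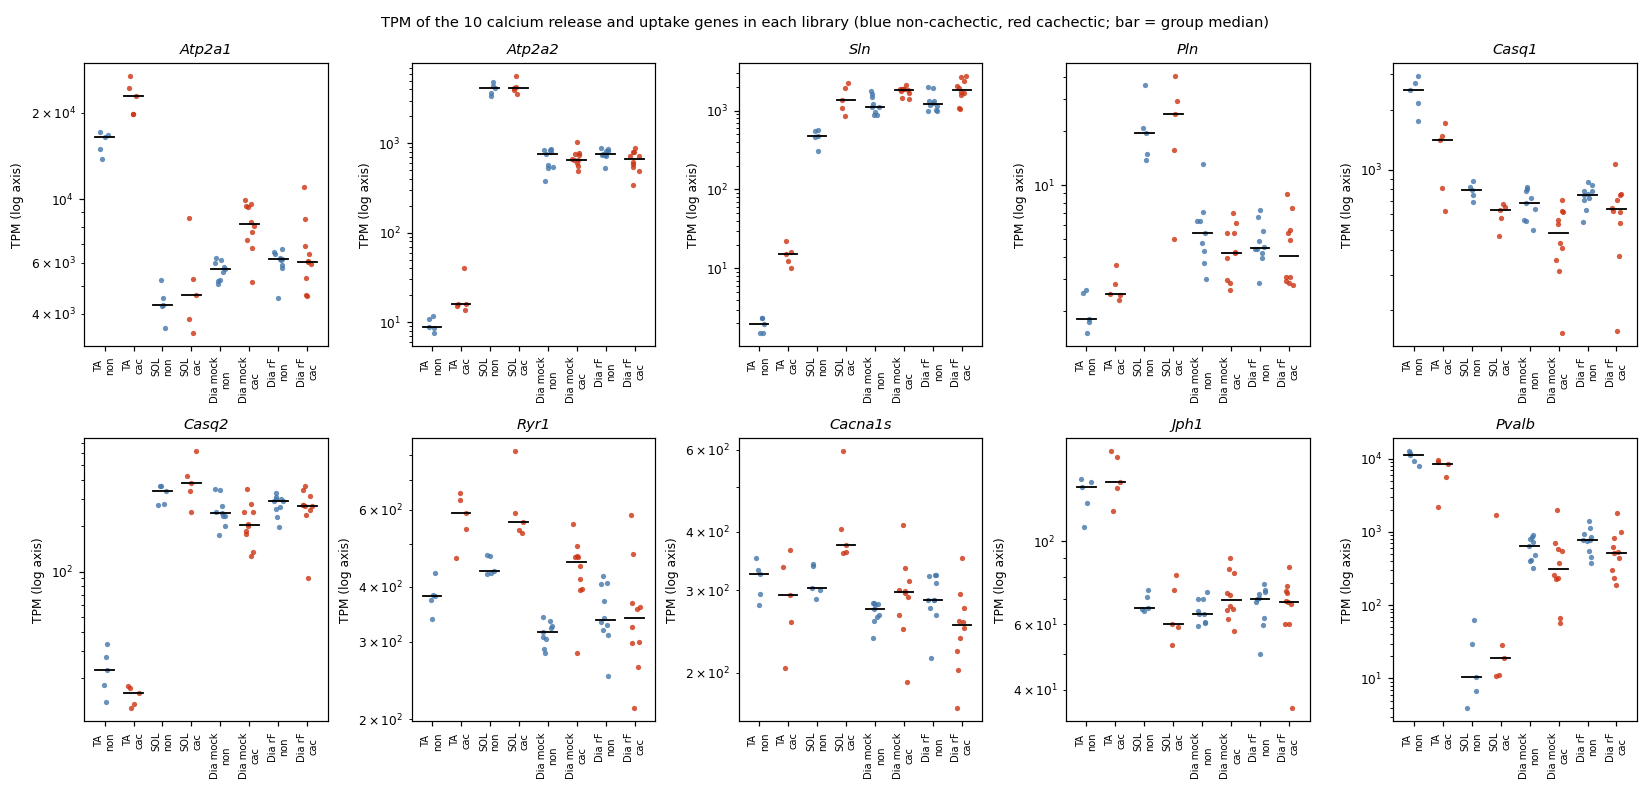
TPM (log axis) of each of the 10 genes in all 59 libraries, 1 panel per gene and 1 point per library, with bars at group medians, for tibialis anterior (TA), soleus (SOL) and diaphragm (Dia; mock or rFibcd1, rF) from mice with the non-cachectic (non) or cachectic (cac) melanoma. Atp2a2, Sln, Casq2 and Pvalb separate the muscles most, and within tibialis anterior the Sln and Atp2a2 points of the 2 melanomas do not overlap.

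Casq1, Casq2 and Pvalb set tibialis anterior apart from both other muscles, and the 200 bases before their RefSeq start lie upstream of the gene in the GENCODE annotation too. These upstream windows are shown 5′ to 3′ on the gene's strand. They come from RefSeq's GRCm38.p6 promoter table, which held 7 of the 10 genes, at chr1:172219896-172220095 (minus strand), chr3:102086215-102086414 (plus strand) and chr15:78206401-78206600 (minus strand). Capitals mark E-boxes (CANNTG, the motif class bound by myogenic factors) and matches to the MEF2 consensus. Both strands were searched, and a match on one strand is also one on the other for these motifs.
Casq1: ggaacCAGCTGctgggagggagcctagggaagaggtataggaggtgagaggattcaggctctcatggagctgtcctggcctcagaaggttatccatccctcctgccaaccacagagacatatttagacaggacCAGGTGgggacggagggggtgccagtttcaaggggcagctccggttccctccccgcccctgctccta
Casq2: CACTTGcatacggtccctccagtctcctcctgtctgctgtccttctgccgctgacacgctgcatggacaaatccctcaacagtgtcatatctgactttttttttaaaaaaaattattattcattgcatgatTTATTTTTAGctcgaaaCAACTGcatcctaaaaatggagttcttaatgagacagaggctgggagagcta
Pvalb: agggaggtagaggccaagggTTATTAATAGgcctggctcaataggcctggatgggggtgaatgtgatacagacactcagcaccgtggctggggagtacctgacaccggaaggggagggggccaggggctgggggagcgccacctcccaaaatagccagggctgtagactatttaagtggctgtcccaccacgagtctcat

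The Casq1 window held E-boxes starting at -195 and -67 from the RefSeq start and no MEF2 match. The Casq2 window held E-boxes at -200 and -52 and a MEF2 match at -69, and the Pvalb window held a MEF2 match at -180 and no E-box. An E-box occurs in 58.2% and a MEF2 match in 2.29% of the 32851 promoter windows of the same length, and a match of letters shows no binding.

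In tibialis anterior, the cachectic melanoma went with more transcript for both pumps, for sarcolipin and for the release channel, and with less for both calsequestrins. Atp2a1, Atp2a2, Sln and Ryr1 rose, Casq1 and Casq2 fell, and Pln, Cacna1s, Jph1 and Pvalb did not pass the test. These 4 higher and 2 lower genes stand against 56.4% and 3.78% of the 11105 genes tested in this muscle (60.2% called in all), where a higher level was the common outcome and a lower one was rare. The median log2 fold change was 0.23 over the 10 genes and 0.41 over all genes.

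Sln rose most. It was at 1.496, 2.34, 1.99, 1.51 and 2.36 TPM in the non-cachectic and 10.2, 16.2, 21.9, 12.4 and 15.1 TPM in the cachectic libraries. Every cachectic library lay several-fold above every non-cachectic one, and the log2 fold change was 2.43 ± 0.18 (adjusted p = 8.40e-06), or 5.38-fold on TPM + 1. The cachectic tibialis anterior stayed below every soleus and diaphragm library for this gene. Pln, the related inhibitor, was at 1.75, 2.62, 1.81, 1.505 and 2.51 against 2.84, 2.31, 3.599, 2.47 and 2.49 TPM, with overlapping groups and a log2 fold change of 0.30 ± 0.14 (adjusted p = 0.0735) that was not called.

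Both pumps rose. Atp2a1 was at 17189.7, 13859, 16796, 16544 and 14991 TPM without and 19785, 19854, 26915, 22892 and 24510.4 TPM with cachexia. The groups did not overlap, and the log2 fold change was 0.52 ± 0.11 (adjusted p = 0.00459). Atp2a2 was at 8.75, 10.97, 7.48, 8.56 and 11.8 against 13.6, 15.8, 40.4, 14.9999 and 16.04 TPM, again with no overlap, and rose by 0.90 ± 0.25 (adjusted p = 0.0126). The highest of these values came from cachectic library 8, without which the Atp2a2 difference was 0.63 (adjusted p = 0.00110). Atp2a2 was still a trace transcript next to Atp2a1. Slow myosin Myh7 rose as well in this muscle, from a median of 0.4597 to 2.56 TPM (0.89 ± 0.34, adjusted p = 0.0380). Its levels were low and the groups overlapped, at 0.271 to 2.31 TPM without and 0.807 to 4.83 TPM with cachexia. Of 7 slow-fiber markers 5 were higher and 2, Myl2 and Myl3, lower. Together they ranged over 40.3 to 67.5 TPM without and 20.99 to 52.7 TPM with cachexia, none with a group mean of 0. Of 7 fast-fiber markers 1 was higher and 2 were lower, and their summed level was 55758 to 72562 without and 60309 to 73219 TPM with cachexia. The part of fiber type in the pump results was not tested.

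Of the release channel and its voltage sensor, the channel alone was called. Ryr1 was at 430.4, 337, 373, 383 and 381 TPM in the non-cachectic and 466.1, 543, 591, 655 and 631 TPM in the cachectic tibialis anterior. All cachectic values were the higher ones, and Ryr1 rose by 0.59 ± 0.11 (adjusted p = 0.00249). Cacna1s was at 352, 279, 325, 331 and 295 against 294, 257, 205, 366 and 336 TPM, overlapping, with a log2 fold change of -0.14 ± 0.15 (adjusted p = 0.408). Jph1 overlapped too, at medians of 139.7 and 144 TPM (0.16 ± 0.13, adjusted p = 0.285).

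The calsequestrins fell. Casq1 was at 2949, 1759.7, 2495, 2729.6 and 2169.9 TPM without and 1419, 816, 622, 1707 and 1471 TPM with cachexia. Its highest cachectic library stayed under the lowest non-cachectic one, and its log2 fold change was -1.08 ± 0.26 (adjusted p = 0.00684), a 2.11-fold lower level. Casq2, at 17.98, 27.2, 22.4, 13.8 and 33.3 against 13.4, 12.5, 17.04, 15.9 and 17.5 TPM, overlapped and fell by a smaller amount (-0.50 ± 0.20, adjusted p = 0.0486), a call that was lost without any 1 of 8 of the 10 libraries. Pvalb was at 12681, 7829.7, 11321, 11946 and 9388 against 9443, 5698, 2197, 9121 and 8355 TPM, overlapping and not called (-0.76 ± 0.34, adjusted p = 0.0698). Cachectic library 8 was the lowest for Casq1 and Pvalb, and without it the log2 fold changes were -0.87 (adjusted p = 0.00479) for Casq1 and -0.39 (adjusted p = 0.0708) for Pvalb, while all 6 called genes remained called. Without cachectic library 6 Pvalb was called, at -0.91 (adjusted p = 0.0409).

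Scaling bears on the genes that rose. Relative to the median gene of tibialis anterior, Atp2a1 was higher by 0.10, Ryr1 by 0.18, Atp2a2 by 0.49 and Sln by 2.02, and Casq1 was at -1.49 and Casq2 at -0.92. With median-ratio scaling, under which 40.8% of all genes were called and the share of these that were higher went from 93.7 to 49.1%, Sln (2.04), Atp2a2 (0.45), Casq1 (-1.56) and Casq2 (-0.96) were called, and Atp2a1 (0.03, adjusted p = 0.879) and Ryr1 (0.11, adjusted p = 0.540) were not. Macrophage markers, of which 5 of the 5 tested were higher with cachexia, summed to 13.5 to 33.6 TPM without and 26.7 to 173 TPM with cachexia, and none of the list's 6 genes had a group mean of 0. Beside this count and those that follow, 56.4% of all genes were higher with cachexia and 3.78% lower. The marker counts are from the main fit, before median-ratio scaling. Of Schwann cell markers 3 of 4 were higher (summed level 29.8 to 51.4 against 46.1 to 80.2 TPM, without against with cachexia). Endothelial markers were higher for 3 of 5 genes and lower for 1 (86.2 to 122 against 107 to 238 TPM). Smooth muscle markers were higher for 2 of 5 (77.4 to 125 against 134 to 221 TPM). By limma 0 of 3 adipocyte markers were called (23.6 to 57.2 against 23.2 to 62.1 TPM), and 2 of 2 tested heart markers were higher. Of the heart list Myl7 was at 0 in both groups and Nppb in the non-cachectic one, no gene of the other lists had a group mean of 0, and the part of these markers in the changes was not tested.

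**Figure D2:**
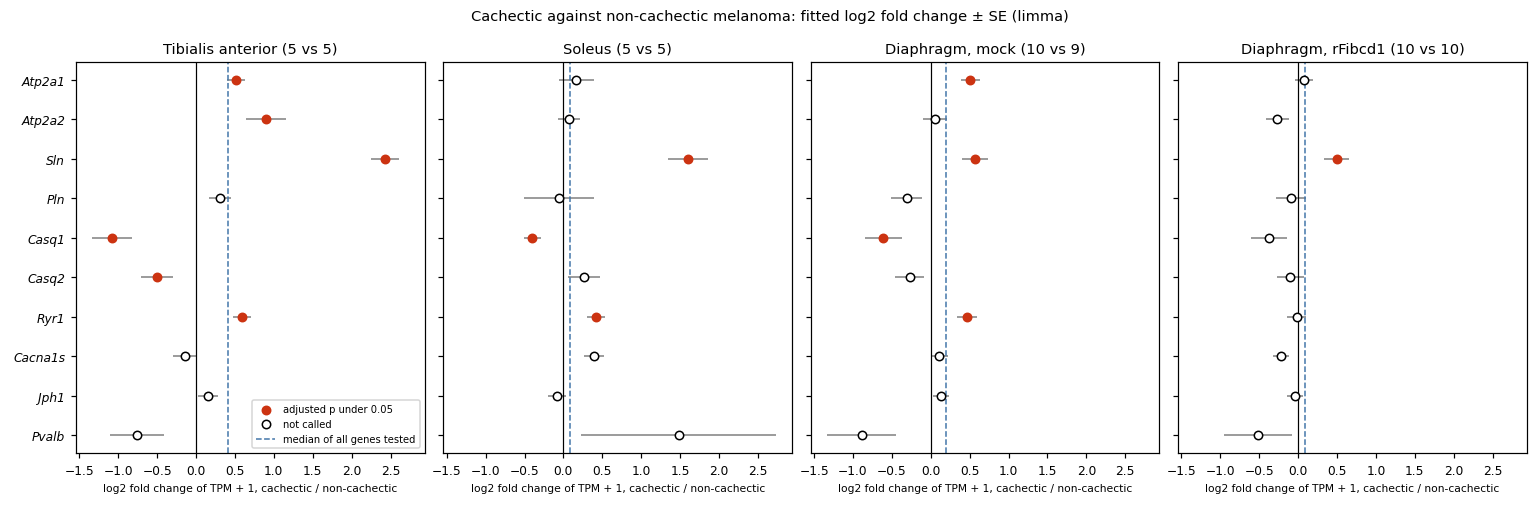
Fitted log2 fold change of TPM + 1 between the cachectic and the non-cachectic melanoma for the 10 genes in 4 panels, 1 per muscle and injection, with bars for the SE. Filled points are called (adjusted p under 0.05) and the dashed line is the median of all genes tested. Sln lies to the right in every panel, and Casq1 to the left, called in 3 of the 4.

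In soleus, sarcolipin and the release channel were higher and Casq1 lower with the cachectic melanoma. Sln and Ryr1 rose and Casq1 fell with cachexia, and neither pump was called. These 2 higher genes and 1 lower gene compare with 17.5% and 7.54% of 11957 genes tested (25.1% called in all), and the median log2 fold change was 0.21 against 0.09 for all genes. Median-ratio scaling kept the calls of Sln (1.49), Ryr1 (0.31) and Casq1 (-0.51), with 28.2% of all genes called, 51.3% of them higher against 69.96% before.

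Sln was at 462, 307, 544, 569 and 476 TPM in the non-cachectic and 1077, 859.9, 1938, 2239 and 1348 TPM in the cachectic soleus. The groups did not overlap, and Sln rose by 1.60 ± 0.26 (adjusted p = 0.00168), 3.03-fold on TPM + 1. Pln overlapped, at 20.7, 14.9, 13.9, 35.7 and 19.4 against 29.2, 24.7, 5.01, 15.6 and 40.3 TPM, with a log2 fold change of -0.05 ± 0.45 (adjusted p = 0.946). The cachectic soleus values spanned the range of the non-cachectic mock diaphragm, 871 to 1785 TPM.

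Ryr1 was at 429, 431, 474, 470.0 and 435 TPM without and 539.9, 529.5, 816, 564 and 591 TPM with cachexia, and Cacna1s was at 341, 303, 337, 299.7 and 287 against 374, 361, 595, 406 and 360.0 TPM. For both genes the groups did not overlap, the cachectic one being higher. Ryr1 was called (0.42 ± 0.12, adjusted p = 0.0204), and Cacna1s, with nearly the same size of difference, was not (0.39 ± 0.13, adjusted p = 0.0510). Cachectic library 8 was the highest for both, and without it Ryr1 was 0.31 (adjusted p = 0.00699) and Cacna1s 0.26 (adjusted p = 0.0302). Leaving out cachectic library 6, 7, 8 or 10 brought Cacna1s under the threshold, and the Ryr1 call was lost without non-cachectic library 62. Jph1 had medians of 66.1 and 60.1 TPM and was not called (-0.08 ± 0.11, adjusted p = 0.644).

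Casq1 was at 883, 750.4, 820.4, 690.4 and 793 TPM in the non-cachectic and 677, 576, 467, 630.4 and 650.1 TPM in the cachectic soleus. No cachectic value reached the non-cachectic range, and the log2 fold change was -0.40 ± 0.11 (adjusted p = 0.0233), lost without non-cachectic library 61 or 63. Casq2 was at 277, 338, 365, 274 and 367 against 340.4, 245, 385, 622 and 427 TPM, overlapping (0.26 ± 0.21, adjusted p = 0.378). Atp2a1 was at 5219, 4527, 4249, 4298 and 3559.6 against 4629, 8629.9, 5268, 3410.5 and 3827 TPM (0.17 ± 0.22, adjusted p = 0.615) and Atp2a2 at medians of 4117 and 4104 TPM (0.08 ± 0.14, adjusted p = 0.728). Neither pump separated the groups. Pvalb was at 29.3, 10.4, 6.76, 63.1 and 3.89 against 28.7, 1695, 10.7, 18.8 and 11.2 TPM, where a single cachectic value stood far above the rest. That value and the highest Atp2a1 value belong to library 7, the one with fast myosin, and without it Pvalb was 0.15 (adjusted p = 0.893), Atp2a1 -0.04 (adjusted p = 0.883) and Sln 1.78 (adjusted p = 0.00104). Slow myosin Myh7 rose in soleus by 0.41 ± 0.14 (adjusted p = 0.0498), with overlapping groups. The 7 slow-fiber markers, of which 2 were higher, together ranged over 27213 to 35893 TPM without and 31016 to 46481 TPM with cachexia, and the macrophage markers, 1 of 6 of them higher, over 60.97 to 77.3 and 46.5 to 192 TPM. Of the other lists 1 of 5 endothelial markers was lower (153 to 194 against 140.2 to 243 TPM) and 1 of 2 tested heart markers higher. Of all genes, 17.5% were higher with cachexia and 7.54% lower in soleus. The part of these markers in the soleus changes was not tested.

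In the diaphragm of mock-injected mice, cachexia went with more Atp2a1, Sln and Ryr1 and less Casq1. The 3 higher genes and 1 lower gene compare with 30.9% and 2.67% of 13426 genes (33.5% called in all). Over the 10 genes the median log2 fold change was 0.08, and that of all genes 0.20. The cachectic and non-cachectic groups overlapped for every one of the 10 genes.

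Atp2a1 had a lowest, median and highest value of 5049, 5724 and 6225 TPM in the 9 non-cachectic and 5146, 8201 and 9939 TPM in the 10 cachectic mock diaphragms. The cachectic median lay above the highest non-cachectic library, and the log2 fold change was 0.51 ± 0.12 (adjusted p = 0.00183). Atp2a2, at 374, 757 and 856 against 489.7, 655 and 1033 TPM, was not called (0.05 ± 0.15, adjusted p = 0.815). Of the inhibitors, Sln was at 871, 1099 and 1785 against 1403, 1845 and 2112 TPM and rose by 0.57 ± 0.16 (adjusted p = 0.00836), with overlap. Pln had medians of 5.43 and 4.23 TPM (-0.31 ± 0.20, adjusted p = 0.223).

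Ryr1 was at 283, 316 and 342 TPM without and 283, 456 and 557 TPM with cachexia (lowest, median, highest). The groups overlapped only through the lowest cachectic values, and Ryr1 rose by 0.47 ± 0.13 (adjusted p = 0.00503). Cacna1s, at medians of 273 and 297 TPM (0.11 ± 0.11, adjusted p = 0.412), and Jph1, at 63.97 and 69.6 TPM (0.13 ± 0.10, adjusted p = 0.326), were not called. Casq1 was at 501, 681 and 822 against 153, 485 and 707 TPM and fell by 0.61 ± 0.24 (adjusted p = 0.0426). The groups overlapped widely, and the call was lost without any 1 of 11 libraries, to -0.44 (adjusted p = 0.106) without cachectic library 20, the lowest. Casq2 had medians of 243 and 203 TPM (-0.27 ± 0.18, adjusted p = 0.245). Pvalb spread from 56.5 to 1992 TPM over the cachectic group, around a median of 313 against 650.4 TPM without cachexia. It was not called (-0.89 ± 0.45, adjusted p = 0.118), but was without the highest of these libraries, number 22, at -1.18 (adjusted p = 0.0216).

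These diaphragm calls depended on the treatment of the library differences described above. Relative to the median gene, Atp2a1, Sln and Ryr1 were higher by 0.31, 0.37 and 0.26. After median-ratio scaling (16.2% of genes called, 45.9% of them higher against 92.05% before), only Casq1 was called, at -0.84 (adjusted p = 0.0133), and Atp2a1 was 0.27 (adjusted p = 0.254), Sln 0.34 (adjusted p = 0.243) and Ryr1 0.23 (adjusted p = 0.310). With the Pcna-ps2 split as a term (15.3% of genes called), Atp2a1 (0.55, adjusted p = 0.00562) and Ryr1 (0.52, adjusted p = 0.00911) were called. Within the 9 cachectic and 3 non-cachectic libraries with Pcna-ps2 above 1 TPM (5.69% of genes called), 0 of the 10 genes were called by limma and 4 had an unadjusted p under 0.05, as had 27.4% of all genes. Macrophage markers, 3 of 6 of them higher, summed to 109.5 to 266 TPM without and 188 to 654 TPM with cachexia. Of 5 each, 3 endothelial (169 to 224 against 190.4 to 269.7 TPM, without against with cachexia), 3 smooth muscle (124 to 221 against 159 to 549 TPM), 2 Schwann cell (88.4 to 128 against 104 to 173 TPM) and 1 adipocyte marker (124 to 1211 against 179.9 to 2578 TPM) were higher, as were 1 of 7 fast-fiber, 2 of 7 slow-fiber and 1 of 4 tested heart markers. Of all genes, 30.9% were higher with cachexia and 2.67% lower in the main fit, from which these marker counts come. No gene of these lists had a group mean of 0, and the part of these markers in the changes was not tested.

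With rFibcd1 the difference between melanomas was called for Sln alone, 1 of 10 genes higher where 7.14% of all genes were (9.11% called in all, 78.3% of those higher against 45.4% after median-ratio scaling). Sln was at 986, 1212 and 1989 TPM in the 10 non-cachectic and 1047, 1837 and 2744 TPM in the 10 cachectic rFibcd1 diaphragms (lowest, median, highest). The groups overlapped, the log2 fold change was 0.49 ± 0.16 (adjusted p = 0.0444), and the call was lost without any 1 of 13 libraries. It was also lost without a filter (adjusted p = 0.0774), after median-ratio scaling (0.41, adjusted p = 0.156), with the Pcna-ps2 split as a term (0.45, adjusted p = 0.0621), with only the groups compared (adjusted p = 0.132), within the libraries with Pcna-ps2 above 1 TPM (0.28, adjusted p = 0.488) and by Dunn's test (adjusted p = 0.203). Atp2a1 (4528, 6203 and 6704 against 4598, 6066 and 11069.9 TPM) differed by 0.07 ± 0.12 (adjusted p = 0.749) and Ryr1 (250.3, 337 and 424 against 211, 340.4 and 583 TPM) by -0.02 ± 0.12 (adjusted p = 0.939). Casq1 was at 551, 754 and 874 against 157, 635 and 1072 TPM (-0.37 ± 0.23, adjusted p = 0.316), and without cachectic rFibcd1 library 3 its value was -0.17 (adjusted p = 0.617). None of these 3 was called, and Cacna1s was at -0.22 (adjusted p = 0.168). Within the 2 cachectic and 4 non-cachectic libraries with Pcna-ps2 below 1 TPM, an alternative chosen after seeing the data, Sln (1.02) was higher and Casq1 (-0.72), Cacna1s (-0.50) and Pvalb (-1.78) were lower, all 4 called, where 28.9% of all genes were called. Those 2 cachectic libraries are 11, the one that differed by gene length, and 14. Without library 11 only 1 cachectic library was left, which has no spread of its own, so effect sizes alone are given. They were -0.09 for Cacna1s, 0.48 for Atp2a1, 0.80 for Sln, -0.99 for Casq1 and -1.93 for Pvalb. Of the markers, 2 of 6 for macrophages, 1 of 4 for heart and 1 of 5 for smooth muscle were higher with cachexia in all rFibcd1 diaphragms, and 1 of 5 for smooth muscle and 1 of 5 for endothelium lower.

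The direct comparison of rFibcd1 with mock injection called 0 of the 10 genes in either melanoma. In cachectic mice 3 of the 10 had an unadjusted p under 0.05, as had 10.5% of all genes, limma called 0.0447% of all genes, and Dunn's test called 0 of the 10 and 0% of all genes, with 4 of the 10 and 7.53% of all genes at an unadjusted p under 0.05. Atp2a1 had a median of 6066 with rFibcd1 and 8201 TPM with mock injection (-0.34 ± 0.12, adjusted p = 0.308). Ryr1 had medians of 340.4 and 456 TPM (-0.35 ± 0.12, adjusted p = 0.313), and Cacna1s 252 and 297 TPM (-0.23 ± 0.10, adjusted p = 0.426). Those 3 genes were lower and Casq1 (0.38 ± 0.23), Casq2 (0.31 ± 0.18) and Pvalb (0.74 ± 0.43) were higher in the fitted values, all without a call. Leaving out 1 library at a time moved Casq1 over 0.21 to 0.58, Casq2 over 0.24 to 0.48 and Pvalb over 0.47 to 1.04. Without rFibcd1 library 3, Atp2a1 (-0.43, adjusted p = 0.0396) and Ryr1 (-0.43, adjusted p = 0.0476) passed the threshold. In non-cachectic mice 0 of the 10 had an unadjusted p under 0.05, against 17.4% of all genes, Dunn's test called 0 (0.104% of all genes), and limma called 0.417% of all genes. The fitted values there ran from -0.19 for Pln to 0.37 for Pvalb. Whether the difference between rFibcd1 and mock injection depended on the melanoma was tested as an interaction, for which 0 of the 10 genes were called, 3 had an unadjusted p under 0.05 (all genes 8.79%) and 0.0223% of all genes were called. Those 3 were Atp2a1 (-0.44 ± 0.17), Ryr1 (-0.49 ± 0.17) and Cacna1s (-0.33 ± 0.15), with adjusted p from 0.528 to 0.548. The median log2 fold changes of the 10 genes were -0.04, 0.12 and -0.12 for cachectic, non-cachectic and interaction, beside 0.03, 0.15 and -0.11 for all genes, and the share of called genes that were higher was 83.3 and 83.9% against 53.3 and 50.8% after median-ratio scaling. These comparisons share groups of libraries.

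The response to the cachectic melanoma was compared between muscles by testing the difference itself, for which Sln was called. Its log2 rise was larger in tibialis anterior than in soleus by 0.83 ± 0.30 (adjusted p = 0.0484) and smaller in mock diaphragm than in tibialis anterior (-1.86 ± 0.26, adjusted p = 3.42e-05) and soleus (-1.03 ± 0.26, adjusted p = 0.0266). It was the 1 gene of 10 called in each of these differences, against 20.4, 5.04 and 2.52% of 13501 genes. The difference between tibialis anterior and soleus was lost without any 1 of 22 libraries, without a filter (adjusted p = 0.0792) and after median-ratio scaling (0.59, adjusted p = 0.150), where Casq2 (-1.15, adjusted p = 0.0218) and Cacna1s (-0.93, adjusted p = 0.0207) were called in its place (10.9% of all genes). Besides Sln, Atp2a2 and Cacna1s were called there with a pseudocount of 0.1 (0.89 and -0.54, 25.2% of all genes) and with the filter at a mean of 5 TPM (24.5%), and Atp2a2 for diaphragm against tibialis anterior in both of these (-0.91 and -0.85, 7.28 and 7.36%). The difference between diaphragm and soleus was lost without any 1 of 3 libraries, while the one between diaphragm and tibialis anterior was called in each of these settings. Of the markers, 4 of 6 for macrophages and 1 of 5 for endothelium had the greater response in tibialis anterior than in soleus, as had 3 of 7 for slow fibers, with 2 the smaller. In diaphragm against tibialis anterior 1 slow-fiber and 1 fast-fiber marker had the greater response and 4 slow-fiber markers the smaller. For diaphragm against soleus 0 genes of these lists were called by limma, and the part of these markers was not tested. These differences share libraries. The median log2 difference of the 10 genes was 0.20, -0.08 and -0.23 for tibialis anterior against soleus, diaphragm against tibialis anterior and diaphragm against soleus, beside 0.30, -0.18 and 0.12 for all genes. Of the called genes, those with the greater response in the first muscle of the pair went, with that scaling, from 93.8 to 36.7% for tibialis anterior against soleus, from 14.1 to 59.1% for diaphragm against tibialis anterior and from 77.4 to 36.3% for diaphragm against soleus. The non-cachectic median of Sln was 1.99 TPM in tibialis anterior and 476 and 1099 TPM in soleus and diaphragm, so the same log2 rise stands for different amounts of transcript. For Atp2a2 (0.83 ± 0.31, adjusted p = 0.0562), Casq2 (-0.77 ± 0.33, adjusted p = 0.0894) and Cacna1s (-0.54 ± 0.20, adjusted p = 0.0548) the differences between tibialis anterior and soleus were not called. When libraries with the same column number were treated as pairs, a replicate block chosen after seeing the data, these 3 and Casq1 (-0.68, adjusted p = 0.00564) were called besides Sln, with 42% of all genes called. In the same fit Atp2a2 (-1.06), Sln (-1.65), Casq1 (0.82) and Casq2 (0.61), 4 of the 10 genes, were called for diaphragm against tibialis anterior (16.2% of all genes) and 0 by limma, with 2 and 24.3% of all genes at an unadjusted p under 0.05, for diaphragm against soleus (6.8%). Sln was -0.82 (adjusted p = 0.0719) in the last of these.

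A ratio of 2 genes within a library hardly depends on how TPM are scaled. The log2 ratios of TPM + 1 were compared between groups by two-sided permutation tests, 24 in all, with p adjusted over the 24. Ryr1 per Cacna1s, the release channel per voltage sensor, went from a median of 1.21 to 1.88 in tibialis anterior with cachexia and from 1.19 to 1.51 in mock diaphragm. The log2 ratio was higher by 0.73 in tibialis anterior (exact permutation p = 0.00794, the smallest that 5 against 5 can give, adjusted p = 0.0381), with no overlap, by 0.35 in mock diaphragm (exact permutation, adjusted p = 0.00364) and by 0.20 in rFibcd1 diaphragm (permutation, adjusted p = 0.0118). In soleus the ratio differed by 0.03 (exact permutation, adjusted p = 0.838). Sln per Pln went from 0.941 to 6.04 in tibialis anterior, without overlap (log2 difference 2.12, exact permutation, adjusted p = 0.0381), and from 251 to 398 in mock diaphragm (0.88, exact permutation, adjusted p = 0.0381). In soleus it went from 22.4 to 36.9 (1.65, exact permutation, adjusted p = 0.101), which did not pass, nor did it in rFibcd1 diaphragm (0.59, permutation, adjusted p = 0.120). The ratio of fast to slow pump, Atp2a1 to Atp2a2, did not pass in any muscle (for example 0.46 in mock diaphragm and -0.39 in tibialis anterior, exact permutation, adjusted p = 0.103 and 0.313), and neither did that of Casq1 to Casq2 (-0.66 in soleus and -0.34 in mock diaphragm, exact permutation, adjusted p = 0.101 and 0.125). Without cachectic library 8 the Atp2a1 to Atp2a2 value in tibialis anterior was -0.18. Of these 5 passed tests, the 2 in tibialis anterior could not pass with 1 library left out, since the smallest p of 4 against 5 libraries gave an adjusted p of 0.0762 (exact permutation), and their differences then ran from 0.60 to 0.82 for Ryr1 per Cacna1s and from 2.05 to 2.26 for Sln per Pln. Sln per Pln in mock diaphragm did not pass without any 1 of 7 libraries. In rFibcd1 diaphragm, Atp2a1 to Atp2a2 (0.34) and Casq1 to Casq2 (-0.27) did not pass (permutation, adjusted p = 0.101 and 0.103). Each passed when 1 particular library was left out (exact permutation, adjusted p = 0.0201 and 0.0317). Within the mock diaphragms with Pcna-ps2 above 1 TPM, Sln per Pln differed by 0.13 (adjusted p = 0.714, exact permutation) and Ryr1 per Cacna1s by 0.39 (adjusted p = 0.0727, exact permutation), whose exact permutation p of 0.00909 is the smallest that 9 against 3 can give. In the rFibcd1 diaphragms on that side of the split Ryr1 per Cacna1s was higher by 0.25 (adjusted p = 0.0107, exact permutation), which passed. None of the 8 ratio tests of rFibcd1 against mock injection passed (permutation, the lowest adjusted p being 0.313).

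**Figure D3:**
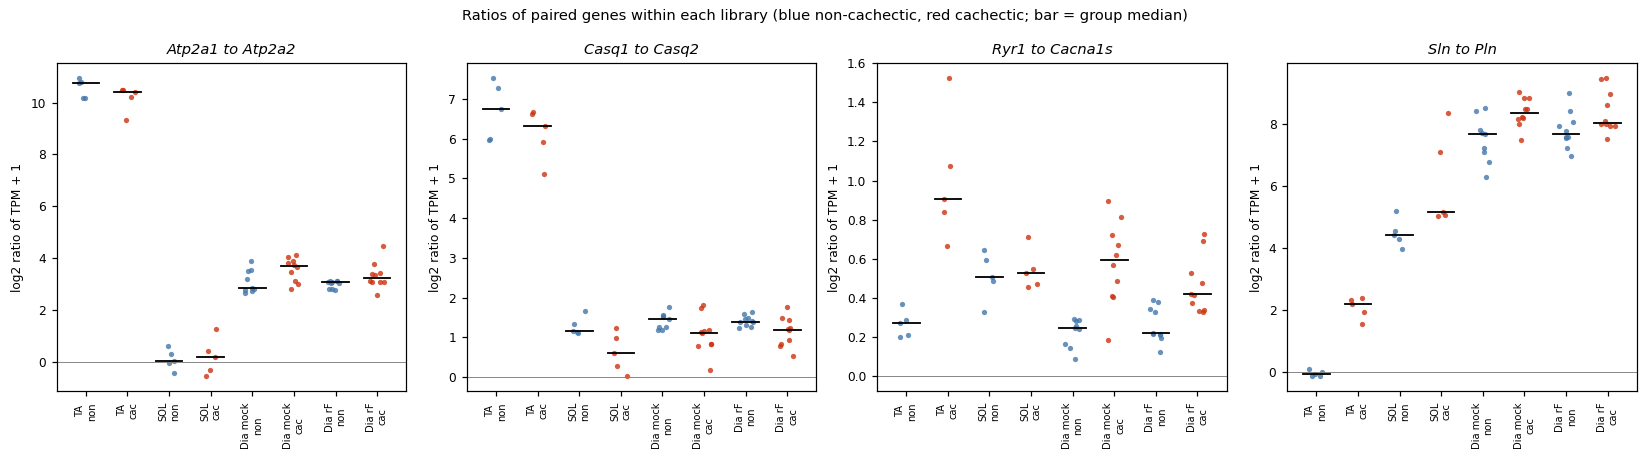
The 4 log2 ratios of TPM + 1 within each library, 1 panel per ratio and 1 point per library, with bars at group medians and groups as in the plot of TPM by library. In tibialis anterior the cachectic points lie above the non-cachectic ones for Ryr1 to Cacna1s and for Sln to Pln, without overlap.

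Other genes of calcium handling were followed as a list of 54, of which 53 were in the table. With cachexia, 22 of 48 tested were higher and 1 lower in tibialis anterior, 13 and 5 of 50 in soleus, 13 and 2 of 52 in mock diaphragm and 8 and 0 of 52 in rFibcd1 diaphragm. Of all genes tested, 56.4% and 3.78% were higher and lower in tibialis anterior, 17.5% and 7.54% in soleus, 30.9% and 2.67% in mock diaphragm and 7.14% and 1.97% in rFibcd1 diaphragm. Their median log2 fold changes were 0.29, 0.11, 0.19 and 0.08, beside the medians of all genes of 0.41, 0.09, 0.20 and 0.08. The list was drawn up with earlier results of these data known. In either comparison of rFibcd1 with mock injection limma called 0 of 52, with 15 in the cachectic and 10 in the non-cachectic comparison at an unadjusted p under 0.05, beside 10.5 and 17.4% of all genes. Among 21 genes of release and the triad, Tmem38b, which encodes a potassium-permeable channel of the sarcoplasmic reticulum, and Cacng1, the gamma subunit of the voltage sensor's channel, rose in all 3 muscles. Tmem38b medians went from 24.6 to 67.7 TPM in tibialis anterior (1.61 ± 0.22, adjusted p = 0.000439) and from 41.6 to 90.3 TPM in mock diaphragm (1.09 ± 0.15, adjusted p = 4.45e-06), without overlap in either. Cacng1 medians went from 98.4 to 298 TPM in soleus (1.67 ± 0.34, adjusted p = 0.00517) and from 28.6 to 107 TPM in mock diaphragm (1.66 ± 0.25, adjusted p = 2.64e-05), again without overlap. Cacna1s, the pore subunit of the same channel, was not called in any of the 4 comparisons.

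Tested genes of this list that rose with cachexia numbered 6 of 18 for release and the triad in tibialis anterior, 7 of 18 in soleus and 6 of 20 in mock diaphragm, beside 56.4, 17.5 and 30.9% of all genes. Of uptake and its micropeptides, 3 of 3 tested genes rose in tibialis anterior, 0 of 4 in soleus and 1 of 4 in mock diaphragm. In tibialis anterior that count was above the share of all genes, the one below for store-operated entry near it, and those for release and the triad, mitochondrial uptake and buffers under it. The single gene of the list that fell in tibialis anterior was Sypl2 (-0.75 ± 0.21, adjusted p = 0.0131), a triad protein, and Jph2, the second junctophilin of muscle, fell in soleus (-0.26 ± 0.081, adjusted p = 0.0376) and mock diaphragm (-0.51 ± 0.13, adjusted p = 0.00262). Of mitochondrial calcium uptake, 3 of 6 genes rose in tibialis anterior and 2 of 7 in soleus. Mcu, the pore of the mitochondrial calcium uniporter, rose in soleus from a median of 18.9 to 28.5 TPM (0.69 ± 0.097, adjusted p = 0.000763), and in mock diaphragm from 12.3 to 19.01 TPM (0.53 ± 0.077, adjusted p = 1.30e-05). Of buffers, sensors and calcium-dependent enzymes, 6 of 14 rose in tibialis anterior, led by Calr, a calcium-binding chaperone of the reticulum, at 1.05 ± 0.33 (adjusted p = 0.0180), and 3 rose in soleus, among them Rcan1, an inhibitor of calcineurin, at 0.90 ± 0.21 (adjusted p = 0.0111) and Camk2b at 0.72 ± 0.18 (adjusted p = 0.0144). Of store-operated entry and surface extrusion, 4 of 7 rose in tibialis anterior, led by the sodium-calcium exchanger Slc8a1 at 1.03 ± 0.29 (adjusted p = 0.0125).

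**Figure D4:**
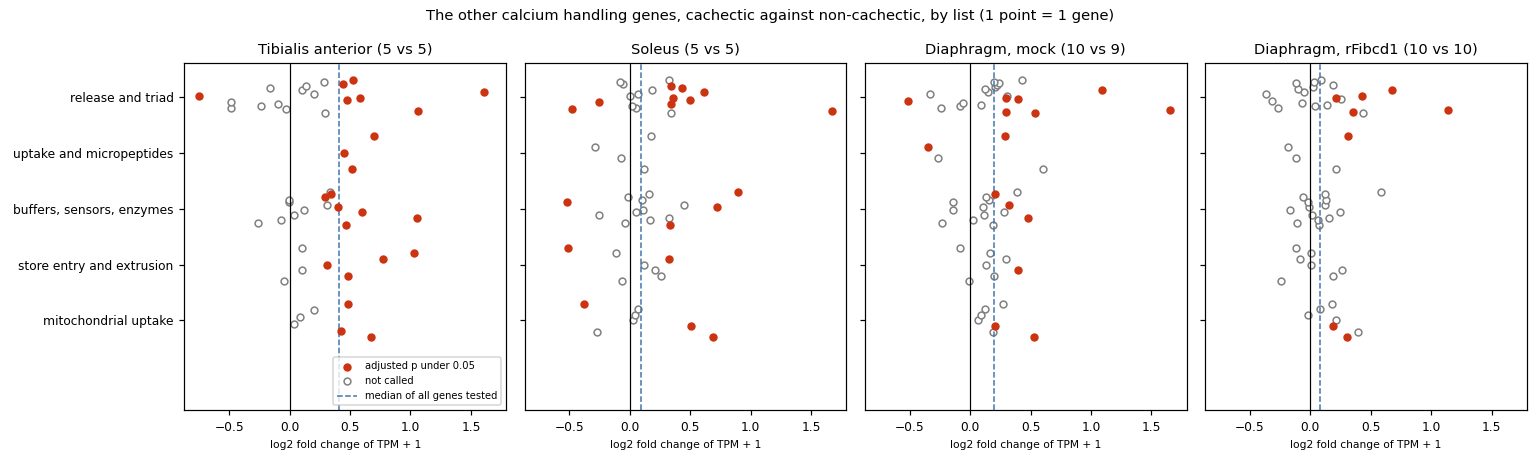
Log2 fold change of TPM + 1 between the cachectic and the non-cachectic melanoma for the other calcium handling genes, 1 point per gene, grouped into 5 lists, with 1 panel per muscle and injection. Filled points are called (adjusted p under 0.05) and the dashed line is the median of all genes tested, which lies at 0.41 in tibialis anterior. Called points fall mostly to the right of 0, 22 of 23 in tibialis anterior, where 93.7% of all called genes were higher, and 49.1% after median-ratio scaling.

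The micropeptide Strit1 (DWORF, in the table as Gm34302), which activates the SERCA pumps, was the list's gene with the widest difference between muscles. Its non-cachectic medians were 768 TPM in soleus, 78.9 in diaphragm and 0.199 in tibialis anterior, the same order as Atp2a2, and diaphragm was lower than soleus by a log2 fold change of -3.20 ± 0.19 (adjusted p = 7.84e-16). Across all 59 libraries the 3 genes with levels most like Atp2a2 were those of slow-fiber proteins, Myh7, Tnnt1 and Tnnc1 (Pearson r 0.99, 0.99 and 0.98). Among the 3 most like each of the other members were, for Casq2, Myom3 (0.97), for Pvalb Gm12319 (0.90), Mybpc2 (0.89) and Actn3 (0.89), and for Atp2a1 Sar1b (0.97) and Myoz1 (0.95). For Casq1 these included Sh3bgr (0.94) and Jph2 (0.90), for Sln Idh2 (0.95), for Jph1 Ppp3cb (0.94), for Ryr1 Pde4dip (0.90), for Pln Xpo4 (0.90) and for Cacna1s Srl (0.79) and Ryr1 (0.73). These correlations are over 8763 genes with a mean of at least 5 TPM, the points share muscle and group, and they carry no test. Atp2a2, Casq2 and Pln are also expressed in heart, and of 6 heart markers Myl7 was at 0 in every limb library while Myh6, which soleus also carried, reached 1617 TPM there.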

How the data were processed

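RNA-seq was made from diaphragm, tibialis anterior and soleus muscles. The authors aligned reads to GRCm38/mm10 with CLC Genomics Workbench and deposited a table of TPM, the unit of every value used. The annotation behind it is not given in the sources used here, and labels and methods name different library kits and sequencers. The labels place each library in a group, and the columns carry a group and a number. No column was left out.

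Genes with TPM of at least 1 in as many libraries as the smallest group of the fit were tested on log2(TPM + 1) with limma 3.58.1 (R 4.3.3, trend, two-sided, Benjamini-Hochberg over all genes tested, threshold 0.05), after the code was tested on simulated data. Diaphragm groups were fitted together, each limb muscle alone, and comparisons between muscles over the 39 libraries without rFibcd1. Ratios were compared by permutation tests (SciPy 1.17.1, Python 3.11.15), exact where a group had fewer than 10 libraries and with 100000 resamples otherwise.

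Alternatives were a pseudocount of 0.1, no filter, a mean TPM of at least 5, median-ratio scaling, Dunn's test (used by the study), the Pcna-ps2 split as a term, only the groups compared and each library left out. Analyses within 1 side of the split and a block for the column number were chosen after seeing the data. Deviations from group means of same-numbered libraries correlated with medians of 0.41 (tibialis anterior and soleus, 10 of 10 above 0.1), 0.35 (diaphragm and tibialis anterior, 10 of 10) and 0.30 (diaphragm and soleus, 8 of 10). For libraries with different numbers the medians were -0.10, -0.03 and -0.03 in that order.

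The 10 genes and all lists were chosen with earlier results of these data known. Of the other calcium genes, those named are among the 4 with the largest absolute log2 fold change called in a comparison, except Sypl2 and Jph2, which like Myl2 and Myl3 were chosen after their values were seen. Genes of like pattern are among the 3 with the highest Pearson r. Positions are from GENCODE M21 (GRCm38) and promoter windows from RefSeq (GRCm38.p6). Marker lists covered fast and slow fibers, heart and smooth muscle, macrophages, endothelium, Schwann cells, adipocytes, red blood cells and liver, and no tested red blood cell or liver gene was called between melanomas.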

Additional observations from a re-analysis of the deposited data

Results flagged for a closer look

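Of 112 groups of values from the 10 genes and their 4 ratios, 14 held a library whose gap to its nearest neighbor, as a share of the group's range, passed Dixon's 95% critical value, where chance gives about 1 in 20 groups. Each is given with the nearest other value of its group, and no explanation was tested.

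Library 8 of cachectic tibialis anterior had Atp2a2 at 40.4 TPM (nearest 16.04) and a log2 Atp2a1 to Atp2a2 ratio of 9.35 (nearest 10.2). Library 8 of cachectic soleus had Ryr1 at 816 TPM (nearest 591) and Cacna1s at 595 TPM (nearest 406), and library 7 had Pvalb at 1695 TPM (nearest 28.7) beside the group's highest Myh4.

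In the diaphragm, non-cachectic rFibcd1 library 56 was low for Atp2a1 at 4528 TPM (nearest 5777), Atp2a2 at 525.6 TPM (nearest 716) and Cacna1s at 215 TPM (nearest 266). Pvalb was high in cachectic rFibcd1 library 4 at 1834 TPM (nearest 992) and in cachectic mock library 22 at 1992 TPM (nearest 706). Casq2 was low in cachectic rFibcd1 library 3 at 90.9 TPM (nearest 236), and Jph1 in cachectic rFibcd1 library 11, the one that differed by gene length, at 35.7 TPM (nearest 59.99). Atp2a2 was high in cachectic mock library 32 at 1033 TPM (nearest 775), and Pln in non-cachectic mock library 67 at 13.2 TPM (nearest 7.07).

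The log2 response of Sln to the cachectic melanoma differed between muscles by limma's test of the difference itself, by 0.83 for tibialis anterior minus soleus (adjusted p = 0.0484), -1.86 for diaphragm minus tibialis anterior (adjusted p = 3.42e-05) and -1.03 for diaphragm minus soleus (adjusted p = 0.0266). The first of these was lost after median-ratio scaling, without a filter and without any 1 of 22 libraries, and the last without any 1 of 3 libraries and with libraries of the same column number as pairs, at -0.82 (adjusted p = 0.0719).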

How the results depend on the processing

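Over the 10 genes and 13 comparisons, the alternatives other than those that leave out each library in turn gave 1 called reversal, Ryr1 for soleus against tibialis anterior, -0.37 after median-ratio scaling, while 45 values that were called in neither setting had another sign. The pseudocount of 0.1 and the filter at a mean of 5 TPM, which left 9 of the 10 genes in tibialis anterior, kept the number of called genes within 1.5 times of the main one in every comparison of melanomas within a muscle, of rFibcd1 with mock injection and of muscles. Counts that moved more follow. The cause was not tested, beyond the fewer libraries in the analyses within 1 side of the Pcna-ps2 split.

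For mock diaphragm the 4 called genes became 1 with median-ratio scaling, 2 with the Pcna-ps2 split as a term and 0 within the libraries above 1 TPM (limma, 4 at an unadjusted p under 0.05). For rFibcd1 diaphragm the 1 called gene became 0 without a filter, with median-ratio scaling, with the split as a term and with only the groups compared. The count was also 0 within the libraries above 1 TPM and by Dunn's test. Within the libraries below 1 TPM it was 4, where 1 of the 2 cachectic libraries is library 11. Dunn's test gave 5 genes in place of 8 for soleus against tibialis anterior and 0 in place of 6 for diaphragm against soleus (4 at an unadjusted p under 0.05). Of the 1 gene whose melanoma response differed between tibialis anterior and soleus, the count became 3 with a pseudocount of 0.1, 3 with the mean filter, 0 without a filter and 2 with median-ratio scaling, and for diaphragm against tibialis anterior 2 with a pseudocount of 0.1 and 2 with the mean filter.

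Over all genes, the calls moved from 4501 to 2170 (median-ratio), 2059 (split as a term) and 805 (above 1 TPM) for mock diaphragm, and from 1223 to 335 with only the groups compared, 4011 below 1 TPM and 0 by Dunn's test for rFibcd1 diaphragm. For rFibcd1 against mock injection they moved from 56 to 2453 in non-cachectic mice with only the groups compared, and from 6 to 789 in cachectic mice above 1 TPM. Dunn's test gave 4990 in place of 9385 for soleus against tibialis anterior and 1178 in place of 5243 for diaphragm against soleus. Fewer genes were tested with the mean filter, which gave 3379 for diaphragm against soleus, 6013 in place of 9790 for diaphragm against tibialis anterior and 168 in place of 340 for the difference of melanoma response between diaphragm and soleus. Median-ratio scaling gave 1466 in place of 2750 for that between tibialis anterior and soleus and 15 in place of 6 for rFibcd1 in cachectic mice. The replicate block gave 5677, 2193 and 918 for the differences of melanoma response between tibialis anterior and soleus, diaphragm and tibialis anterior (main 681), and diaphragm and soleus.

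The replicate numbers of the labels could not be tied to the columns, so the pairing was checked on column numbers and the replicate block was chosen after seeing the data. With this replicate block the genes called were 5 for tibialis anterior against soleus, 4 for diaphragm against tibialis anterior and 0 for diaphragm against soleus in the differences of melanoma response (main 1 each), and 9, 9 and 7 between muscles (main 8, 9 and 6). In diaphragm against soleus, where 8 of 10 same-numbered pairs correlated above 0.1, it called Casq1 (-0.43) and Casq2 (-0.58) and lost Atp2a1 (0.35). It ended no call between soleus and tibialis anterior or diaphragm and tibialis anterior.

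With group medians in place of means the ratio of Atp2a1 to Atp2a2 in rFibcd1 diaphragm was 0.18 (adjusted p = 0.0424), Ryr1 to Cacna1s in tibialis anterior 0.63 (adjusted p = 0.190), Sln to Pln in mock diaphragm 0.67 (adjusted p = 0.206) and in tibialis anterior 2.26 (adjusted p = 0.190), by permutation. Within the libraries above 1 TPM, Ryr1 to Cacna1s in mock diaphragm was 0.39 (adjusted p = 0.0727) and Sln to Pln 0.13 (adjusted p = 0.714), by exact permutation.

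Leaving out 1 library at a time changed 94 of 4490 calls on single genes. The genes called ranged over 3 to 5 in mock and 0 to 1 in rFibcd1 diaphragm, 5 to 6 in tibialis anterior, 2 to 4 in soleus, 0 to 2 for rFibcd1 against mock injection in cachectic mice, and 0 to 3, 1 to 2 and 0 to 1 for the differences of response between tibialis anterior and soleus, diaphragm and tibialis anterior, and diaphragm and soleus. The log2 ratio differences ranged over 0.21 to 0.42 for Atp2a1 to Atp2a2 and -0.34 to -0.21 for Casq1 to Casq2 in rFibcd1 diaphragm, 0.72 to 1.00 for Sln to Pln in mock diaphragm, and 0.60 to 0.82 for Ryr1 to Cacna1s and 2.05 to 2.26 for Sln to Pln in tibialis anterior, where the smallest p of 4 against 5 libraries gave an adjusted p of 0.0762 by exact permutation. TPM carry no depth, so the precision of low genes such as Sln and Pln in tibialis anterior cannot be set from counts.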
